A study of Mus musculus with 6 samples.

Results

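The nuclear tRNAs that carry the basic amino acids lysine, arginine and histidine were followed in mouse hearts with and without Elac2. Members were the features that the authors' deposited table types as mature or precursor tRNA with the isotype Lys, Arg or His, leaving out Arg-TCT. There were 107 such features of 30638 in the table, made up of 59 Lys, 33 Arg and 15 His features, beside 632 features of other nuclear tRNAs. Of the 107, 37 were mature and 70 were precursor features. Counts were above 0 in at least 1 library for 26 mature and 50 precursor features, and 31 features had no count in any library. A count of 0 allows up to 0.185 to 0.222 counts per 1000000 counts of a library, taking 3 counts as the limit.

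The knockout group was 3 mice titled L/L, cre, with the genotype Elac2 -/-, and the control group was 3 mice titled L/L, with the genotype Elac2 +/+. All 6 mice had a C57BL/6 strain background, and ages are among the details not given in the sources used here. One exon of Elac2 was flanked by loxP sites and removed by cre driven from the muscle creatinine kinase promoter, as the labels spell it, a promoter active in muscle cells, so other cells of the heart need not have lost the gene. Each library was made from total RNA of a crude heart and selected for inserts of 15 to 100 nt.

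ELAC2 is RNase Z, the endonuclease that cuts the 3′ trailer from tRNA precursors in the nucleus and in mitochondria. RNase P removes the 5′ leader, CCA is added to the trimmed 3′ end, and histidine tRNA also receives an extra G at its 5′ end. Lys-CTT reads the lysine codon AAG and Lys-TTT reads AAA. Arg-ACG, Arg-CCG and Arg-TCG read codons of the CGN box and Arg-CCT reads AGG, while His-GTG reads both histidine codons. In the feature names the number after the anticodon stands for a distinct mature sequence, and a last number, given for precursors, stands for a gene copy with that sequence.

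RefSeq genes on GRCm38.p6 were 72 bases long for His-GTG and 73 bases long for the Lys and Arg anticodons. The gene numbers equalled the precursor features of Arg-ACG, Arg-CCG, Arg-CCT, Arg-TCG and His-GTG, while Lys-CTT had 24 genes against 26 precursor features and Lys-TTT 2 genes against 14. To show what separates a precursor from a mature tRNA, 1 Arg-TCG gene, n-TRtcg5, is printed with the bases after it. It lies on the plus strand at chr7:79466419-79466491 (GRCm38.p6), inside the RefSeq promoter window of Polg, and it was not matched by name to a counted feature. Capitals mark the anticodon, positions 34 to 36 from the 5′ end of the gene.
n-TRtcg5: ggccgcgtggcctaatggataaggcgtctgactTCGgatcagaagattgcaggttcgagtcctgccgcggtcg
The 17 bases that follow, chr7:79466492-79466508, end in a run of 5 T, the kind of run at which RNA polymerase III stops, shown in capitals. These bases belong to the 3′ trailer, on which RNase Z acts.
n-TRtcg5 trailer: acttgtatgttgTTTTT

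Libraries held 14505705, 15271036 and 14947237 counts in knockout replicates 1 to 3 and 13510061, 16248673 and 15951770 counts in control replicates 1 to 3. In all, 25689 counts in knockout and 78032 counts in control hearts fell on the mature members, and 1656 and 2269 on the precursor members. Elac2 mRNA was not measured by these libraries, so they do not check the genotypes. Of the microRNA markers of heart muscle, 4 of 4 were detected, and their summed level was 37161 to 47710 scaled counts per 1000000 (CPM) in knockout and 59122 to 75825 CPM in control hearts. Of 2 fibroblast markers, Mir214 was at 0 and the other stood at 1233 to 1309 CPM in knockout and 637 to 877 CPM in control hearts. Of 2 leukocyte markers, Mir223 was at 0 and the other stood at 127 to 160 CPM in knockout and 70.8 to 116 CPM in control hearts, while marker levels of endothelium, smooth muscle, red cells, liver and brain overlapped between the groups. The part of these markers in the results below was not tested. In hearts taken whole, fewer cells of a type and less RNA per cell cannot be told apart.

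Mature His-GTG, Lys-CTT and 3 of 4 arginine anticodons were lower in knockout hearts, with the largest fold of these for histidine, and mature Lys-TTT and Arg-TCG were not called. The 15 mature features that passed the filter on low counts included 7 lower and 0 higher ones at an edgeR quasi-likelihood adjusted p under 0.05. Of all 1144 features tested, 27.0% were called lower and 23.2% higher, 50.2% in all. The median log2 fold change of knockout over control was -0.68 over the 15 mature features, -0.44 over 109 mature features of other nuclear tRNAs and -0.01 over all features. Of those 109 other mature features, 41 were lower and 15 higher. Groups did not overlap for 8 of the 15 mature and 12 of the 22 tested precursor features, beside 63.0% of all features. By isotype, 1 of 4 mature Lys, 4 of 8 mature Arg and 2 of 3 mature His features were lower. Scaling by snRNA and rRNA features moved the median of all features by 0.55 and left 3 mature calls, while scaling by snoRNA and scaRNA features moved it by -0.85 and gave 14.

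**Figure D1:**
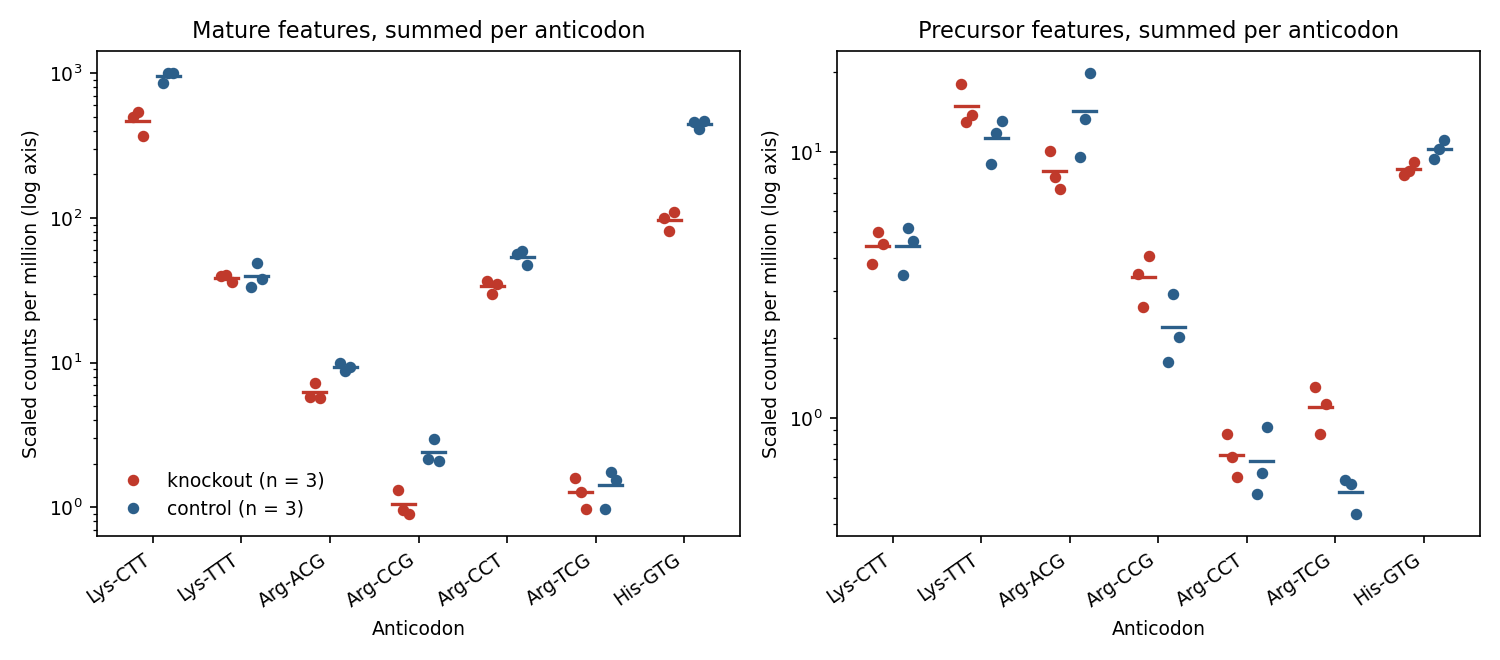
Counts of mature (left) and precursor (right) features summed per anticodon, in TMM-scaled CPM on a log axis. Points are libraries, bars are means of 3 knockout hearts (red) and 3 control hearts (blue). Mature His-GTG and Lys-CTT libraries are separate between the groups, while mature Lys-TTT libraries overlap.

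Histidine tRNA had the lowest mature fold of the 3 isotypes. Summed over its mature features, His-GTG had 99.2, 81.0 and 110 CPM in knockout hearts, against 458, 413 and 472 CPM in control hearts. Every knockout library lay below every control library, and the means were 96.6 ± 14.5 and 448 ± 31.0 CPM (SD, n = 3 each), a level 4.64 times lower. The log2 fold change was -2.21 (SE 0.19, edgeR adjusted p = 3.17e-06). Among 47 mature anticodons tested, whose median log2 fold change was -0.68, this was the fifth lowest.

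The main sequence, His-GTG-2, carried most of the mature histidine counts. It had 1263, 943 and 1351 raw counts in knockout hearts, against 6740, 6978 and 8268 in control hearts, with a log2 fold change of -2.26 (SE 0.19, edgeR adjusted p = 3.71e-06). His-GTG-1 had 92, 70 and 93 counts in knockout hearts, against 302, 338 and 351 in control hearts, and fell by 1.59 on the log2 scale (SE 0.21, edgeR adjusted p = 7.69e-05). Neither group overlapped the other for these features. The rare His-GTG-3 had 12, 11 and 12 counts in knockout hearts, against 13, 19 and 25 in control hearts, and was not called (log2 fold change -0.32, SE 0.34, edgeR adjusted p = 0.458). His-ATG had no count in any library, for its mature and its precursor feature alike.

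The ratio of His-GTG-2 to His-GTG-1, which does not depend on scaling, was 13.7, 13.5 and 14.5 in knockout hearts, against 22.3, 20.6 and 23.6 in control hearts. The groups were separate (log2 difference -0.68, exact two-sided permutation p = 0.1), and 0.1 is the smallest p that 3 against 3 allows. This was 1 of 5 ratios between mature features or sums compared, and each of the 5 had an exact permutation p of 0.1, also after Benjamini-Hochberg adjustment.

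The lysine anticodons differed in their mature counts. Mature Lys-CTT summed to 502, 541 and 366 CPM in knockout hearts, against 854, 1005 and 1009 CPM in control hearts, so the highest knockout library was below the lowest control library. Its log2 fold change was -1.03 (SE 0.19, edgeR adjusted p = 0.000636), and it was called lower under every alternative run. Mature Lys-TTT summed to 39.6, 40.3 and 35.9 CPM in knockout hearts, against 33.1, 48.9 and 37.8 CPM in control hearts. The knockout values lay inside the control range (log2 fold change -0.05, SE 0.20, edgeR adjusted p = 0.852), and snoRNA and scaRNA scaling called the sum lower, at -0.89.

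Set against each other within a library, Lys-CTT counts were 12.7, 13.4 and 10.2 times those of Lys-TTT in knockout hearts, against 25.8, 20.6 and 26.7 times in control hearts. The groups did not overlap, with a log2 difference of -1.01 (exact permutation p = 0.1). His-GTG was also lower relative to Lys-CTT within a library, with ratios of 0.198, 0.150 and 0.299 in knockout hearts, against 0.537, 0.411 and 0.468 in control hearts (log2 difference -1.18, exact permutation p = 0.1).

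Within Lys-CTT, the abundant sequences were lower to unlike degrees, and 1 of them was called. Lys-CTT-3 had 3644, 3702 and 2575 raw counts in knockout hearts, against 9636, 11886 and 13117 in control hearts, and fell by 1.42 on the log2 scale (SE 0.19, edgeR adjusted p = 9.49e-05). Lys-CTT-2 had 3269, 3144 and 2289 counts in knockout hearts, against 3504, 5967 and 5364 in control hearts. After scaling, control replicate 1 lay among the knockout libraries for Lys-CTT-2 and the feature was not called (log2 fold change -0.38, SE 0.21, edgeR adjusted p = 0.154). Its means were 219 CPM in knockout and 286 CPM in control hearts. With snoRNA and scaRNA scaling all 4 tested mature Lys features were called lower, Lys-CTT-2 among them.

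Lys-CTT-3 made up 52.7%, 54.1% and 52.9% of mature Lys-CTT counts in knockout hearts, against 73.3%, 66.6% and 71.0% in control hearts. The means were 53.2% ± 0.726 and 70.3% ± 3.43 (SD, n = 3 each), without overlap (exact permutation p = 0.1, 0.257 after adjustment over 18 mature shares, of which 7 did not overlap). In scaled counts, a different measure, 63.0% of all single features tested had groups that did not overlap. In the Lys-TTT pair neither sequence was called. Lys-TTT-1 had a log2 fold change of -0.09 (SE 0.22, edgeR adjusted p = 0.747) and Lys-TTT-2 had one of 0.00 (SE 0.21, edgeR adjusted p = 0.986).

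The mature arginine sums had smaller differences than mature His-GTG, at counts below those of mature His-GTG and Lys-CTT. Arg-CCT, the most abundant of the 4 arginine anticodons here, summed to 36.8, 29.6 and 34.7 CPM in knockout hearts, against 55.9, 58.9 and 47.3 CPM in control hearts. The groups were separate and the sum fell by 0.68 on the log2 scale (SE 0.19, edgeR adjusted p = 0.0107). Arg-CCG summed to 1.31, 0.949 and 0.903 CPM in knockout hearts, against 2.14, 2.98 and 2.08 CPM in control hearts, again without overlap (log2 fold change -1.18, SE 0.33, edgeR adjusted p = 0.00986). Most of these counts lay on Arg-CCT-1 and Arg-CCG-3. Arg-CCG-3 passed the filter on low counts through the control libraries, so its low knockout counts are partly set by how it was picked. As single features Arg-CCT-1 and Arg-CCG-3 were called lower, at -0.68 and -1.43. Both calls were lost with snRNA and rRNA scaling, at -0.14 and -0.90, and without the filter on low counts, at -0.33 and -1.07, and the Arg-CCT-1 call also without knockout replicate 1, 2 or 3, at -0.52, -0.36 and -0.52.

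Mature Arg-ACG summed to 5.74, 7.20 and 5.72 CPM in knockout hearts, against 9.94, 8.78 and 9.34 CPM in control hearts (log2 fold change -0.59, SE 0.21, edgeR adjusted p = 0.0392). Its sequences did not move alike. Arg-ACG-3 had 28, 26 and 24 raw counts in knockout hearts, against 75, 64 and 84 in control hearts, and fell by 1.14 on the log2 scale (SE 0.25, edgeR adjusted p = 0.00234). Arg-ACG-2 had 26, 34 and 29 counts in knockout hearts, against 27, 43 and 20 in control hearts, with overlapping groups (log2 fold change 0.36, SE 0.33, edgeR adjusted p = 0.394). Arg-ACG-1 had 25, 31 and 23 counts in knockout hearts, against 51, 49 and 67 in control hearts, and was close to the threshold (log2 fold change -0.70, SE 0.27, edgeR adjusted p = 0.0480), a call lost in 9 of the alternatives, DESeq2, the replicate block and the fit without any 1 knockout library among them (-0.73, -0.70 and -0.63 to -0.42). The Arg-ACG-3 call was lost with snRNA and rRNA scaling, at -0.61, and without the filter on low counts, at -0.80.

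Arg-ACG-3 over Arg-ACG-2 was 1.08, 0.765 and 0.828 in knockout hearts, against 2.78, 1.49 and 4.20 in control hearts (log2 difference -1.54, exact permutation p = 0.1). Mature Arg-TCG was rare, at 1.28 ± 0.310 CPM in knockout and 1.42 ± 0.397 CPM in control hearts (SD, n = 3 each), and was not called (log2 fold change -0.15, SE 0.36, edgeR adjusted p = 0.740), though snoRNA and scaRNA scaling called it lower, at -0.99. Its main sequence, Arg-TCG-1, had 10, 8 and 4 raw counts in knockout hearts, against 8, 18 and 12 in control hearts, with overlapping groups. Of the 7 mature sums, 5 were called lower and 0 higher, where 28.2% of the 998 features of that fit were lower and 23.1% higher, 51.3% in all. Over all 47 mature anticodon sums tested, with these among them, 27 were lower and 4 higher. The 3 arginine calls were lost with snRNA and rRNA scaling, at log2 fold changes of -0.14 for Arg-CCT, -0.66 for Arg-CCG and -0.05 for Arg-ACG, and without the filter on low counts. Leaving out a knockout library also ended calls: Arg-CCT without replicate 1, 2 or 3, at -0.53, -0.35 and -0.51, and Arg-CCG without replicate 2 or 3, at -0.86 and -0.88. The Arg-ACG call was lost without any 1 knockout library or without control replicate 1 or 3, at -0.62 to -0.32.

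As a share of all counts, the mature members made up 0.0652%, 0.0581% and 0.0492% in knockout hearts, against 0.161%, 0.168% and 0.181% in control hearts, a mean share 2.96 times lower (exact permutation p = 0.1). As a share of mature nuclear tRNA counts they went the other way, with 14.5%, 16.6% and 8.84% in knockout hearts, against 5.43%, 5.49% and 4.54% in control hearts (exact permutation p = 0.1). Lysine tRNAs made up most of that share, at 10.5% ± 3.75 in knockout and 3.39% ± 0.377 in control hearts (SD, n = 3 each). Counts of the other mature nuclear tRNAs together were thus lower by more than those of the members.

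Precursor features went both ways. Of 22 tested, 4 were higher (18.2%) and 3 lower (13.6%) by the edgeR quasi-likelihood test, beside 23.2% and 27.0% of all features. The median log2 fold change was 0.03 over the 22. Among 92 precursor features of other nuclear tRNAs, 39 were higher and 11 lower, and the median was 0.30. Higher features were 57.1% of the calls among the members and 46.2% of the calls among all features. With total counts as library sizes these shares became 40% and 28.3%, and with snoRNA and scaRNA scaling 21.4% and 13.3%. They were 66.7% and 64.6% with snRNA and rRNA scaling, and 85.7% and 37.9% without a filter on low counts. Without that filter 12 of 50 precursor members tested were higher (24%) and 2 lower (4%). Of the 9254 features then tested, 4.68% were higher and 7.65% lower. Of 288 precursor features of other nuclear tRNAs, 94 (32.6%) were higher and 7 (2.43%) lower. In that run the mature His-GTG sum stood at a log2 fold change of -1.85, against -2.21 with the filter.

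**Figure D2:**
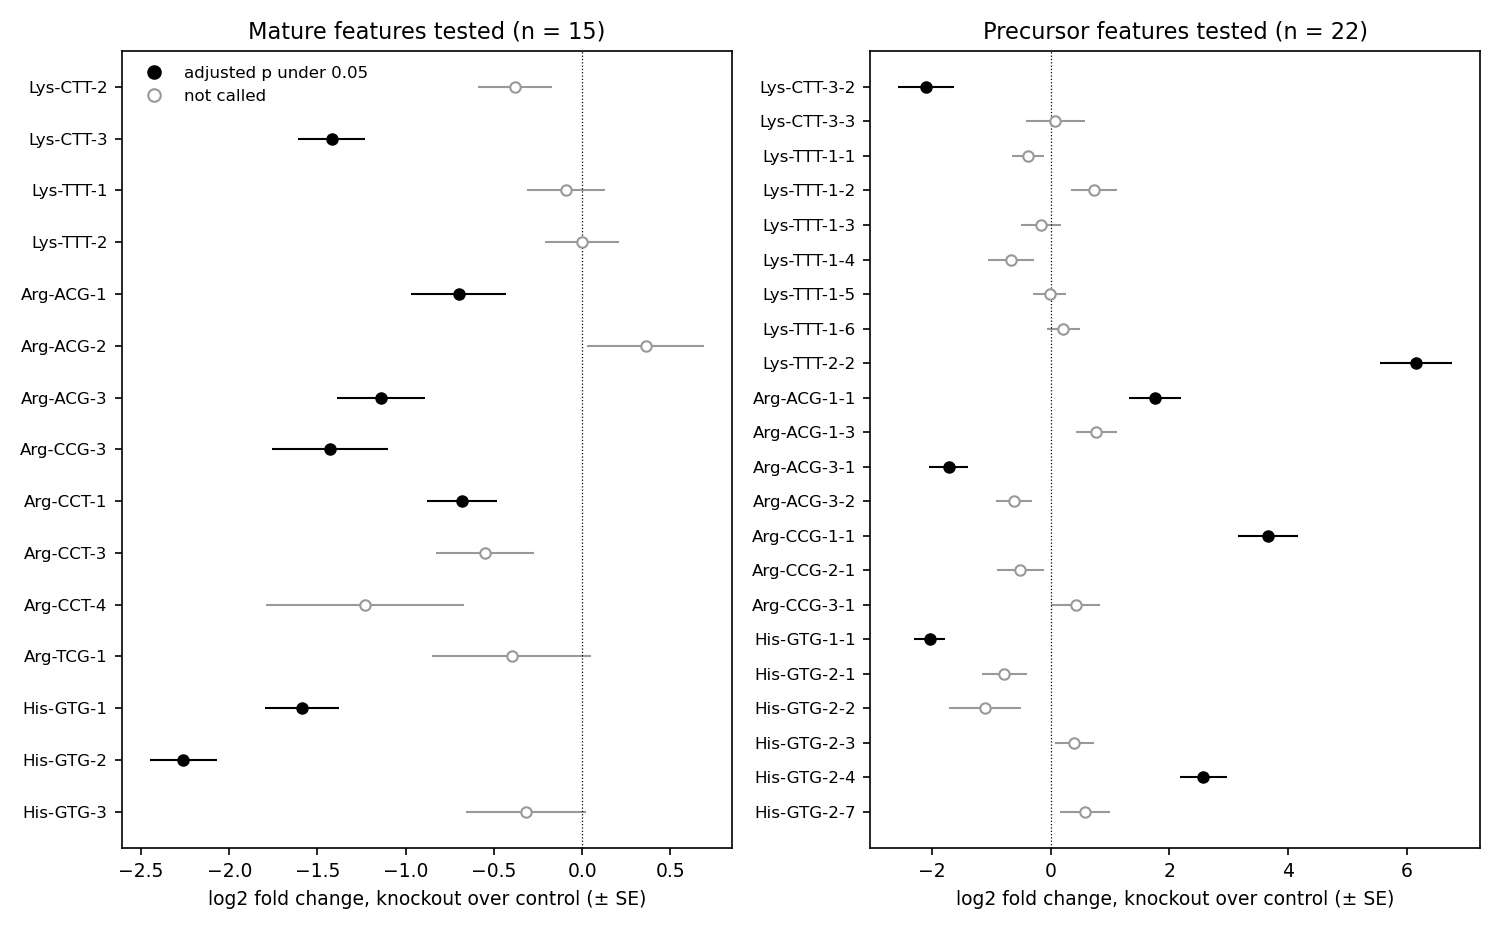
Log2 fold change of knockout over control with its SE for the 15 mature (left) and 22 precursor (right) features tested by edgeR, ordered by anticodon. Filled points had an adjusted p under 0.05. Called mature features lie left of 0, while called precursor features lie on both sides, from -2.10 for Lys-CTT-3-2 to 6.15 for Lys-TTT-2-2.

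The called gene copies with higher precursor counts had few counts in control hearts. They passed the filter on low counts through the knockout libraries, so their low control counts are partly set by how they were picked. Lys-TTT-2-2 had 57, 34 and 42 raw counts in knockout hearts, against 0, 0 and 2 in control hearts. Per library size this was a ratio of 86.2 (95% counting interval 23.4 to 719), and edgeR gave an adjusted p of 9.56e-06. Arg-CCG-1-1 had 18, 12 and 13 counts in knockout hearts, against 1, 1 and 2 in control hearts, and was higher by 3.66 on the log2 scale (SE 0.51, edgeR adjusted p = 0.000123). Both were nearly absent from control libraries and had at least 12 counts in each knockout library.

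His-GTG-2-4 had 17, 29 and 24 counts in knockout hearts, against 5, 5 and 5 in control hearts, and rose by 2.57 on the log2 scale (SE 0.40, edgeR adjusted p = 0.000247). Arg-ACG-1-1 had 26, 20 and 10 counts in knockout hearts, against 8, 6 and 7 in control hearts, and rose by 1.76 (SE 0.44, edgeR adjusted p = 0.00526). Groups did not overlap for either copy. The call of Arg-ACG-1-1 was lost with snoRNA and scaRNA scaling, at a log2 fold change of 0.93.

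Of the 3 lower precursors, His-GTG-1-1 and Arg-ACG-3-1 shared an anticodon with a higher copy. His-GTG-1-1 had 22, 14 and 15 counts in knockout hearts, against 82, 91 and 100 in control hearts, and fell by 2.04 on the log2 scale (SE 0.26, edgeR adjusted p = 6.48e-05). Arg-ACG-3-1 had 46, 40 and 36 counts in knockout hearts, against 95, 162 and 275 in control hearts, and fell by 1.72 (SE 0.33, edgeR adjusted p = 0.000869). Lys-CTT-3-2 had 2, 4 and 2 counts in knockout hearts, against 14, 14 and 18 in control hearts, and fell by 2.10 (SE 0.47, edgeR adjusted p = 0.00265). Knockout libraries were below all control libraries for each of these copies, and the control values of Arg-ACG-3-1 were widely spread. Lys-CTT-3-2 passed the filter on low counts through the control libraries, so its low knockout counts are partly set by how it was picked. Its call was lost without that filter, at -1.75.

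Within an anticodon, the log2 fold change of tested copies ran from -2.04 to 2.57 for His-GTG, from -1.72 to 1.76 for Arg-ACG, from -0.67 to 6.15 for Lys-TTT and from -0.51 to 3.66 for Arg-CCG. The 6 tested copies of Lys-TTT-1 were all uncalled, between -0.67 for Lys-TTT-1-4 and 0.73 for Lys-TTT-1-2. Counts of single copies are uncertain, because near-identical gene copies can share reads and the rule for assigning them is not given in these sources.

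Summed by anticodon, 1 of the 7 precursor sums was higher and 1 was lower, beside 23.1% and 28.2% of the 998 features of that fit. Arg-TCG precursors summed to 1.31, 0.870 and 1.13 CPM in knockout hearts, against 0.585, 0.563 and 0.437 CPM in control hearts, without overlap (log2 fold change 1.06, SE 0.38, edgeR adjusted p = 0.0370). This sum passed the filter on low counts through the knockout libraries. One of its copies, Arg-TCG-3-2, was below the filter and had 11, 4 and 7 counts in knockout hearts, against 0, 1 and 1 in control hearts. The higher sum lay on this copy, which held 22 of the 44 knockout and 2 of the 27 control counts. Arg-ACG precursors summed to 10.1, 8.06 and 7.22 CPM in knockout hearts, against 9.55, 13.3 and 19.8 CPM in control hearts, and fell by 0.75 on the log2 scale (SE 0.28, edgeR adjusted p = 0.0433) with overlapping groups. The lower sum lay on the copy Arg-ACG-3-1, which held 122 of the 337 knockout and 532 of the 746 control counts. Both calls were lost when control replicate 2 or 3 or knockout replicate 1 or 3 was left out, at log2 fold changes of 0.90 to 1.24 for Arg-TCG and -0.84 to -0.43 for Arg-ACG, and the Arg-ACG call also without knockout replicate 2, at -0.46. DESeq2 and scaling by total counts, miRNA or snoRNA features did not call the Arg-TCG sum, at 1.02, 0.73, 0.88 and 0.22. Neither did the replicate block or the fit without the filter on low counts, at 1.05 and 1.42. The Arg-ACG call was also lost with snRNA and rRNA scaling and without the filter, at -0.16 and -0.37.

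The other 5 precursor sums were not called, though 4 of them were under an alternative. Lys-CTT precursors had a log2 fold change of 0.00 (SE 0.25, edgeR adjusted p = 0.991), at 4.42 ± 0.608 CPM in knockout and 4.42 ± 0.889 CPM in control hearts (SD, n = 3 each). His-GTG precursors, with 8.20, 8.46 and 9.18 CPM in knockout hearts, against 9.36, 10.2 and 11.1 CPM in control hearts, had one of -0.25 (SE 0.20, edgeR adjusted p = 0.330), and were called lower with total counts, at -0.59, and with snoRNA and scaRNA scaling, at -1.09. That last scaling also called Lys-CTT precursors lower, at -0.84. Lys-TTT precursors had one of 0.40 (SE 0.23, edgeR adjusted p = 0.168), and were called higher without knockout replicate 2 or 3, with snRNA and rRNA scaling and without the filter, at 0.75, 0.65, 0.97 and 0.77. Arg-CCG precursors had one of 0.62 (SE 0.31, edgeR adjusted p = 0.112), and were called higher without knockout replicate 1 or 2, with snRNA and rRNA scaling and without the filter, at 0.85, 1.05, 1.22 and 1.01. Among 45 precursor anticodons tested, 18 were higher and 6 lower, with a median log2 fold change of 0.54, and His-GTG was the eighth and Lys-CTT the eleventh from the lowest.

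Precursor counts per 100 mature counts, a measure that does not depend on library scaling, were higher in knockout hearts without overlap for 4 of 7 anticodons, beside 28 of 41 other nuclear anticodons. The median log2 difference was 1.06 over the 7 and 1.38 over the 41. For His-GTG they were 8.27, 10.4 and 8.38 in knockout hearts, against 2.04, 2.47 and 2.35 in control hearts. The log2 difference was 1.98, 3.95 times higher (exact permutation p = 0.1, 0.175 after adjustment over 7 anticodons). Of the parts of this ratio, the mature sum was called lower and the precursor sum was not called.

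For Lys-CTT the ratio was 0.752, 0.920 and 1.23 precursor counts per 100 mature counts in knockout hearts, against 0.403, 0.515 and 0.460 in control hearts (log2 difference 1.06). Arg-CCG had 267, 275 and 450 in knockout hearts, against 75.8, 98.1 and 97.4 in control hearts (log2 difference 1.80). Arg-TCG had 81.8, 68.8 and 115 in knockout hearts, against 60.0, 32.3 and 28.6 in control hearts (log2 difference 1.14). Each of the 3 had an exact permutation p of 0.1 and groups that did not overlap.

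The remaining anticodons overlapped between the groups. Lys-TTT had 38.6 ± 6.64 precursor counts per 100 mature counts in knockout and 28.7 ± 5.44 in control hearts (SD, n = 3 each, exact permutation p = 0.2). Arg-CCT had 2.17 ± 0.379 in knockout and 1.31 ± 0.565 in control hearts (SD, n = 3 each, exact permutation p = 0.2). Arg-ACG had 138 ± 33.5 in knockout and 153 ± 57.8 in control hearts (SD, n = 3 each, exact permutation p = 0.8). The log2 difference of Arg-ACG was -0.10, and it became 0.03 without knockout replicate 2 and 0.16 without control replicate 3.

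**Figure D3:**
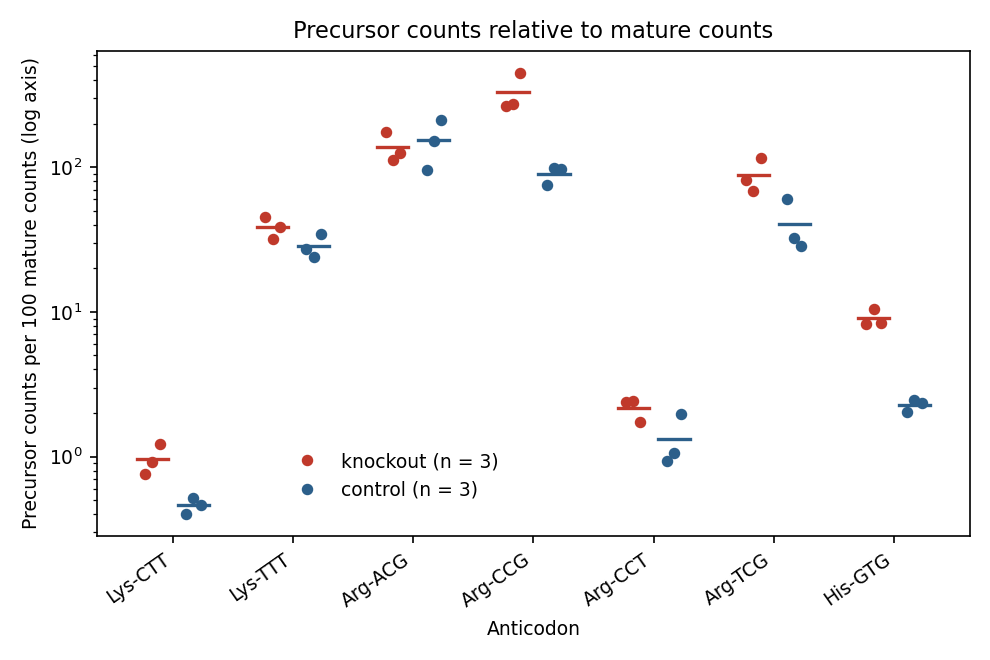
Precursor counts per 100 mature counts of the same anticodon, per library, on a log axis. Points are libraries and bars are means of 3 knockout (red) and 3 control (blue) hearts. Lys-CTT, Arg-CCG, Arg-TCG and His-GTG do not overlap between groups, with a log2 difference of 1.98 for His-GTG, while Arg-ACG, Arg-CCT and Lys-TTT overlap.

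The make-up of the precursor pools was also compared, as shares of single copies. His-GTG-1-1 gave 19.5%, 13.1% and 12.3% of His-GTG precursor counts in knockout hearts, against 56.9%, 50.3% and 49.3% in control hearts. His-GTG-2-4 gave 20.6% ± 6.08 in knockout and 2.90% ± 0.518 in control hearts (SD, n = 3 each). His-GTG-1-1 was ahead of His-GTG-2-4 in knockout replicate 1 and in all control hearts, and behind it in knockout replicates 2 and 3.

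Arg-ACG-3-1 gave 33.1%, 39.2% and 37.5% of Arg-ACG precursor counts in knockout hearts, against 64.6%, 68.4% and 76.0% in control hearts. Lys-TTT-2-2 gave 23.1%, 20.9% and 22.8% of Lys-TTT precursor counts in knockout hearts, against 0%, 0% and 0.833% in control hearts. The mature Lys-TTT-2 counts, which this gene copy would feed, were 210, 168 and 184 in knockout hearts, against 202, 300 and 224 in control hearts. Arg-CCG-1-1 gave 32.6% ± 7.45 of Arg-CCG precursor counts in knockout and 3.78% ± 1.75 in control hearts (SD, n = 3 each). Of 40 precursor shares compared, 23 did not overlap between the groups, these among them. In scaled counts, a different measure, 63.0% of all single features tested did not overlap. Shares within an anticodon depend on each other. Each share named here had an exact permutation p of 0.1, and 0.174 after adjustment over the 40.

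**Figure D4:**
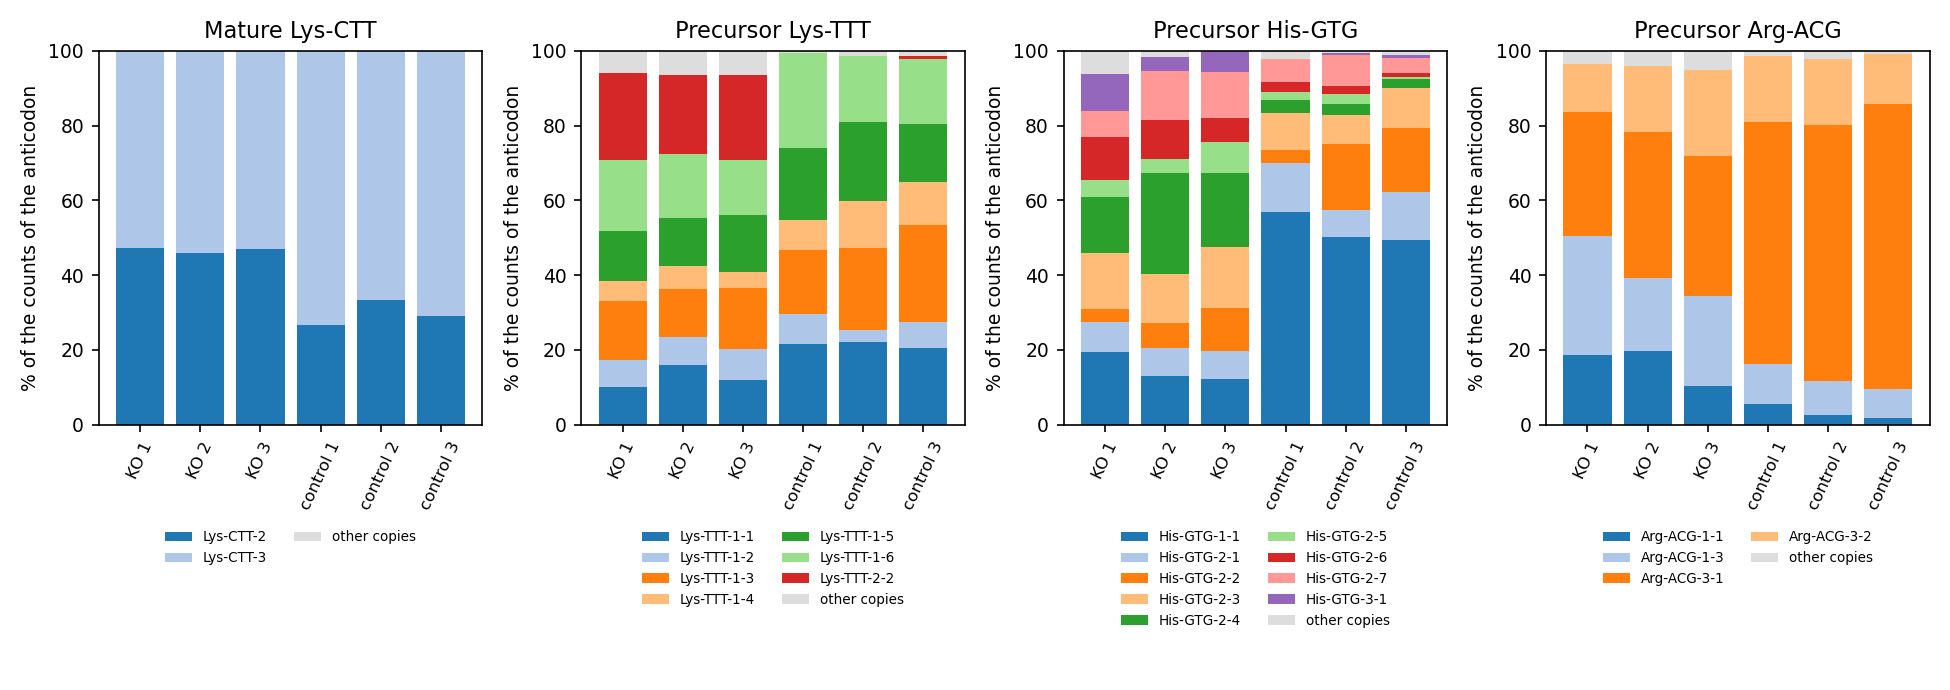
Share of each sequence or gene copy in the counts of its anticodon, per library, for mature Lys-CTT and for precursors of Lys-TTT, His-GTG and Arg-ACG; knockout (KO) libraries are left of control libraries, and grey stands for the copies not listed. Lys-CTT-3 fills 53.2% in knockout and 70.3% in control hearts on average, and His-GTG-1-1 and Arg-ACG-3-1 fill smaller shares in every knockout library.

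Transcripts beside the nuclear tRNAs were read for comparison. The mitochondrial tRNAs for the same amino acids, whose precursors ELAC2 also cuts, were all lower: mt-Tk (lysine) by a log2 fold change of -3.06, mt-Tr (arginine) by -4.39 and mt-Th (histidine) by -2.01, with edgeR adjusted p of 7.36e-05, 3.88e-06 and 0.000155. Of 6 other RNA polymerase III transcripts, 4 were lower, among them Rn7sk at -4.80, the RNA that holds the elongation factor P-TEFb inactive. Rpph1, the RNA of nuclear RNase P, had 58.0, 55.1 and 54.8 CPM in knockout hearts, against 59.8, 42.2 and 50.9 CPM in control hearts, and was not called (log2 fold change 0.14, edgeR adjusted p = 0.577).

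The authors' deposited table gave an adjusted p to 64 of the members and called 17 of them at 0.05, beside 29.4% of all features with an adjusted p. Of the 14 members called here, 13 were also called in the authors' deposited table, and mature Arg-ACG-1 was the exception. The precursors Arg-TCG-3-2, His-GTG-3-1, Lys-CTT-3-6 and Lys-TTT-3-1 were called only by the authors. All of these were higher in knockout hearts, and the filter on low counts kept them out of the main fit here.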

How the data were processed

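Small RNA of 6 hearts, 3 knockout and 3 control, was analysed from 1 count column per mouse. Per the series' design text each mouse had 4 technical replicates, and the way of merging them is among the steps not given in the sources used here. The authors deposited raw counts per feature, normalized counts (a signal that equals the raw count over a library-wide size factor, as found from the values) and their own comparison, which per the file headers holds log2 fold changes, a Wald score, p-values and adjusted p-values. The tools listed in the submitters' processing notes are featureCounts 1.5.1, Bowtie2 2.2.9, DESeq2 1.16.1 and cutadapt 1.14, with mm10 as the build. Annotation, strandedness and treatment of multi-mapping reads are likewise not given in the sources used here. Tested on the values, 0 columns belonged to other samples.

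Every test used the deposited counts. Features kept by filterByExpr (minimum count 10, minimum total 15) were scaled by TMM factors (0.950, 0.828 and 0.889 in knockout, 1.14, 1.09 and 1.15 in control replicates 1 to 3) and tested by the quasi-likelihood functions glmQLFit and glmQLFTest of edgeR 4.0.16 in R 4.3.3, with Benjamini-Hochberg adjustment over all 1144 features. A second fit replaced the nuclear tRNA features by sums per anticodon and form, among 998 features. CPM values are counts per 1000000 counts of TMM-scaled library size. Ratios (log2, with 0.5 added to each count) and shares were compared by two-sided exact permutation in SciPy 1.17.1. Counting intervals are exact 95% intervals and, like the limit of 3 counts, cover counting error only. Alternatives were other scalings, no filter, DESeq2 1.42.0, a replicate block and leaving out each library. The scripts were tested on simulated data.

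Members, lists and tests were chosen with earlier results of these data known. The rule for named features took every anticodon sum, the most abundant mature feature of each anticodon, called mature features of at least 10 CPM in a group, the called precursors with the 6 largest rises and 4 largest falls, and the precursor with most counts where a precursor sum was called. Other single features (Arg-ACG-1 and Arg-ACG-2, Lys-CTT-2, Lys-TTT-2, His-GTG-3, copies of Lys-TTT-1) and Rn7sk were named after their values were seen. Shares of precursor copies were compared after their counts had been seen. Reads of 15 to 100 nt do not tell a whole tRNA from a fragment of it, and precursor and mature features overlap in sequence. Replicates are separate mice per the labels.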

Additional observations from a re-analysis of the deposited data

How the results depend on the processing

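Mature His-GTG and Lys-CTT sums and the single features His-GTG-1, His-GTG-2 and Lys-CTT-3 were called lower in every alternative run, as were the precursors His-GTG-1-1 and Arg-ACG-3-1. Precursors Lys-TTT-2-2, Arg-CCG-1-1 and His-GTG-2-4 were called higher in every alternative run. Against 7 lower mature features, snoRNA and scaRNA scaling gave 14, snRNA and rRNA scaling gave 3, and no filter gave 3 lower and 1 higher. Against 4 higher precursors, no filter gave 12. Against 3 lower precursors, total counts gave 6 and snoRNA and scaRNA scaling gave 11, and leaving out 1 library gave 3 to 7, the 7 without control replicate 1. Against 5 lower mature sums, snRNA and rRNA scaling and no filter each gave 2, and leaving out 1 library gave 2 to 5 (3 without knockout replicate 1, 2 without knockout replicate 2 or 3). Against 1 higher precursor sum, total counts, miRNA scaling, snoRNA and scaRNA scaling and DESeq2 each gave 0, snRNA and rRNA scaling gave 3, no filter gave 2, and leaving out 1 library gave 0 to 3. Against 1 lower precursor sum, total counts gave 2, snoRNA and scaRNA scaling gave 3, snRNA and rRNA scaling and no filter gave 0, and leaving out 1 library gave 0 to 1. Leaving out a knockout library moved the median of the features shared with the full fit by 0.21 to 0.24 on the log2 scale. The mature share, -0.113 percentage points of all counts, was 8.16 points as a share of mature nuclear tRNA counts. Apart from these, 370 values for single features, sums and ratios kept their call status, of which 31, all uncalled, changed sign. The anticodon ratios among the 370 carried no call in any run, so they could not lose or gain one. A further 54 values lost a call and 15 gained one. The cause was not tested.

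Same-numbered libraries did not deviate together (correlations -0.134, -0.016 and -0.192 for replicates 1 to 3). This gave no sign of pairing by number, though so few libraries cannot exclude it. With a replicate block, 6 mature features were lower, 4 precursors higher and 3 lower, 4 mature sums lower, 0 precursor sums higher and 1 lower. Taken in pairs, the precursor to mature ratios of Lys, Arg and His had exact permutation p of 0.25, 0.5 and 0.25, and 0.25 is the smallest p that 3 pairs allow. Precursors had few counts, which limits the precision of single copies.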

Other observations

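Precursors below the filter on low counts were also read without it, where 4.68% of 9254 features were called higher and 7.65% lower by the edgeR quasi-likelihood test. Called higher in that fit, and chosen for mention after their values were seen, were His-GTG-3-1, with 11, 4 and 7 counts in knockout hearts, against 0, 1 and 2 in control hearts, and His-GTG-2-6, with 13, 11 and 8 counts in knockout hearts, against 4, 4 and 2 in control hearts. Lys-TTT-3-1 had 10, 9 and 4 counts in knockout hearts, against 0, 1 and 1 in control hearts (ratio 14.9, 95% counting interval 3.68 to 130). Lys-CTT-3-6 had 5, 4 and 7 counts in knockout hearts, against 0, 0 and 1 in control hearts (ratio 20.7, 95% counting interval 3.22 to 869). Groups did not overlap for these 4 copies.

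Summed over the gene copies of 1 mature sequence, an arrangement also chosen after the values were seen, the 8 precursor copies of His-GTG-2 had 5.81, 7.04 and 7.52 CPM in knockout hearts, against 4.03, 5.01 and 5.52 CPM in control hearts. Mature His-GTG-2 was lower in the same libraries. The 3 copies of Arg-ACG-1 had 3.78 ± 1.25 CPM in knockout and 1.74 ± 0.195 CPM in control hearts, and the 2 copies of Arg-ACG-3 had 4.53 ± 0.150 and 12.3 ± 4.97 CPM (SD, n = 3 each). The 3 sums were among 11 of 16 precursor sums that did not overlap between the groups (exact permutation p = 0.1 each). Of all single features tested, 63.0% did not overlap either.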
